A study of Arabidopsis thaliana with 4 samples.

Results

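AT4G11730 is an Arabidopsis thaliana gene of the P-type ATPase family, and it was examined together with the plasma membrane proton ATPase genes AHA1 to AHA9. The 10 loci were taken by locus tag, and AT4G11730 itself was chosen by its measured difference between cdm1 mutant and wild type floral buds. Of the 10 loci, 1 (AT4G11730) has a probe set that the platform annotation assigns to a single gene, out of 13286 loci with such a probe set and 22746 probe sets in the series. No such probe set was found for AHA1 (AT2G18960), AHA2 (AT4G30190), AHA3 (AT5G57350), AHA4 (AT3G47950) and AHA5 (AT2G24520), which are general members of the family. The same holds for the pollen-type members AHA6 (AT2G07560), AHA7 (AT3G60330), AHA8 (AT3G42640) and AHA9 (AT1G80660). These 9 genes are not analysed here. The annotation does not list 8730 of the probe sets, which carry no gene name, and it assigns 503 to several genes. A locus is called measured below only if it has a single-gene probe set, so one not measured may still have a probe set. The comparison of AT4G11730 with general and pollen-type proton pumps therefore has a value on 1 side only.

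Plasma membrane proton ATPases spend ATP to move protons out of the cell. The resulting proton gradient and membrane voltage drive the uptake of sugars, ions and other solutes through coupled carriers. They are P-type ATPases, pumps that pass through a phosphorylated intermediate, as do calcium pumps, heavy metal pumps and phospholipid flippases. In flowers, AHA6, AHA8 and AHA9 are known as pumps of pollen and pollen tubes, while AHA1 and AHA2 are the most widely expressed pumps of the plant body. The platform annotation and the RefSeq gene table give AT4G11730 no symbol other than its locus tag.

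The study compared unopened floral buds of the cdm1 mutant with those of the wild type, both described as young, in the Col-0 background at 24 days after germination. CDM1 encodes a CCCH zinc finger protein known for its part in callose metabolism and microspore development. RNA of 2 biological replicates per genotype was hybridised to 4 Affymetrix arrays. The labels name no cdm1 allele, and the growth protocol speaks of moderate drought for some plants without assigning it to a sample. The deposited values are log2 expression values. A bud holds many cell types, so a change in the amount of RNA per cell and a change in the number of cells of a type cannot be told apart. Array medians lay between 7.21 and 7.24. Over all probe sets, which are not independent replicates, the wild type arrays correlated at r = 0.998 and the cdm1 arrays at 0.996, against 0.990 to 0.994 between genotypes. CDM1 has no named probe set, so the mutated gene gives no check of the labels.

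AT4G11730 read 6.95 in cdm1 replicate 1, 7.34 in cdm1 replicate 2, 5.87 in wild type replicate 1 and 5.66 in wild type replicate 2, all as log2 values of its single probe set. Both cdm1 arrays lay above both wild type arrays, and the groups did not overlap. The mean was 7.15 ± 0.28 in cdm1 and 5.76 ± 0.15 in wild type (SD, n = 2 arrays each). The difference, cdm1 minus wild type, was 1.38 on the log2 scale with a standard error (SE) of 0.16 from limma, which is 2.61-fold. This difference chose the gene, so it is given as a description with no test. As background, 23.7% of all probe sets had both cdm1 arrays above both wild type arrays, and 1.33% were called in either direction by limma at an adjusted p of 0.05.

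The size of the AT4G11730 difference varied with the pair of arrays compared. The 4 possible differences between a cdm1 and a wild type array ran from 1.08 (cdm1 replicate 1 against wild type replicate 1) to 1.69 (cdm1 replicate 2 against wild type replicate 2). The 2 cdm1 arrays differed by 0.39 and the 2 wild type arrays by 0.21. The gap between the cdm1 arrays was thus wide for these arrays: 7.83% of probe sets had a wider one. The gap between the wild type arrays was exceeded by 19.6% of probe sets. Ordered by difference, AT4G11730 stood at position 32 of 22746 probe sets and at position 14 of the 13436 that could be tied to 1 locus, counted from the largest increase in cdm1. Its wild type values lay a little above 5.32, the mean value under which 33.3% of probe sets fell. Detection calls were not used here, so whether the wild type signal exceeded background was not tested.

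The measured neighbouring genes of AT4G11730 on the fourth chromosome differed less than AT4G11730, which was chosen for its difference. Of the 10 gene records within 5 positions of it in the RefSeq order (assembly TAIR10.1, used for gene order only), 5 had a single-gene probe set. The nearest measured record before it, the pseudogene AT4G11710, read 4.03 and 4.08 in cdm1 and 4.02 and 3.83 in wild type. Its difference was 0.13 (SE 0.11, limma adjusted p = 0.610). AT4G11700, one record further, differed by 0.033 (SE 0.14, limma adjusted p = 0.949). On the other side, SAY1 (AT4G11740), the adjacent gene, read 8.39 and 8.15 in cdm1 and 8.27 and 8.33 in wild type, with overlapping groups. Its difference was -0.030 (SE 0.11, limma adjusted p = 0.940). AT4G11745, the next gene, differed by 0.010 (SE 0.11, limma adjusted p = 0.980). AT4G11710, AT4G11700 and AT4G11745 lay under 5.32, the mean value below which 33.3% of probe sets fell. Whether their signals exceeded background was not tested, so their small differences may be those of undetected transcripts. The adjacent gene on the first side is HAP2 (AT4G11720), which encodes a sperm cell protein for gamete fusion. It has no single-gene probe set and is not analysed here.

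**Figure D1:**
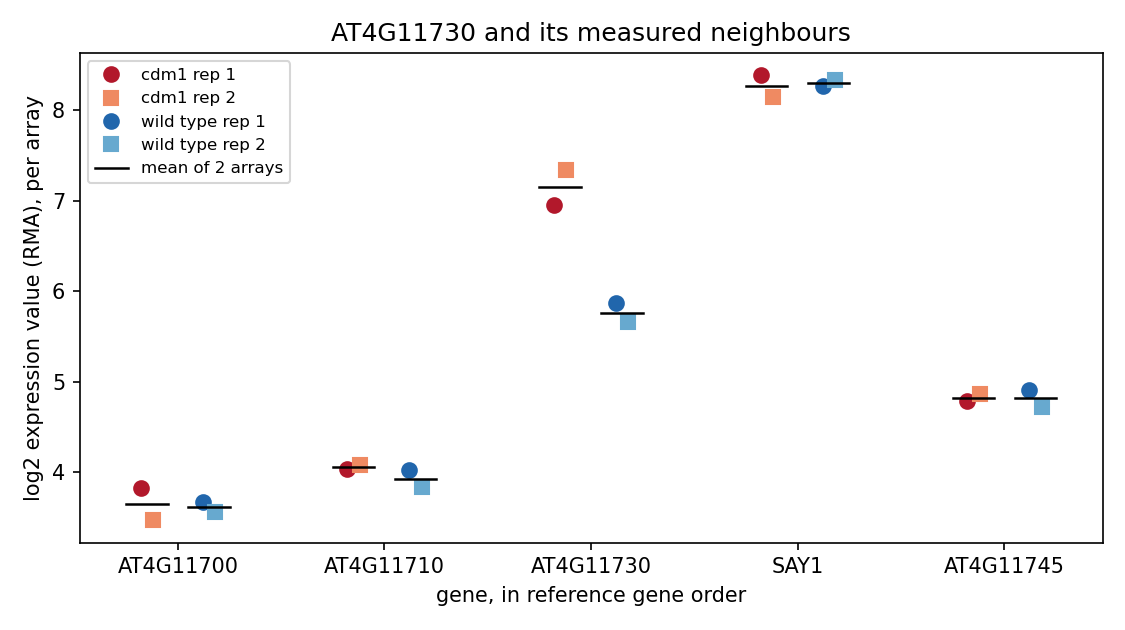
Log2 expression values (vertical axis) of AT4G11730 and the 4 named measured neighbours in gene order (horizontal axis), with a point for each array and a bar for the mean of 2 arrays. AT4G11730, chosen for its difference, reads 6.95 and 7.34 in cdm1 against 5.87 and 5.66 in wild type. The 4 neighbours differ by -0.030 to 0.13. Levels of different probe sets are not comparable with each other.

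Among the other 13435 probe sets of a single locus, those most like AT4G11730 across the 4 arrays were found by the Euclidean distance between log2 values, each centred on its own mean. The distance was 0.14 for XTH16 (AT3G23730), a xyloglucan endotransglucosylase/hydrolase gene that acts on cell wall xyloglucan. XTH16 read 10.3 and 10.6 in cdm1 and 9.22 and 9.12 in wild type, so that cdm1 replicate 2 was also its highest array and wild type replicate 2 its lowest. AT1G36150 followed at a distance of 0.16, with 8.95 and 9.39 in cdm1 and 8.08 and 7.72 in wild type. NDB4 (AT2G20800), an alternative NAD(P)H dehydrogenase gene of mitochondria, was at 0.21. AT2G42480, of the MATH-domain family, was at 0.23 and AT5G56570 at 0.24. The median distance over all ranked probe sets was 1.44. A probe set with equal values in all 4 arrays would lie at 1.42, the length of the AT4G11730 profile. The median thus mostly reflects the difference that chose the gene. Among the probe sets that the annotation does not list, 5 lay closer than AT5G56570. Of the 5 named genes, AT2G42480 had its lowest value in wild type replicate 1, where AT4G11730 had the higher of its wild type values. Their differences between cdm1 and wild type ran from 1.24 for NDB4 to 1.40 for AT2G42480, on either side of the 1.38 of AT4G11730. With 4 arrays in 2 groups, the distance mostly reflects a genotype difference of similar size, and these genes are named as a description.

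**Figure D2:**
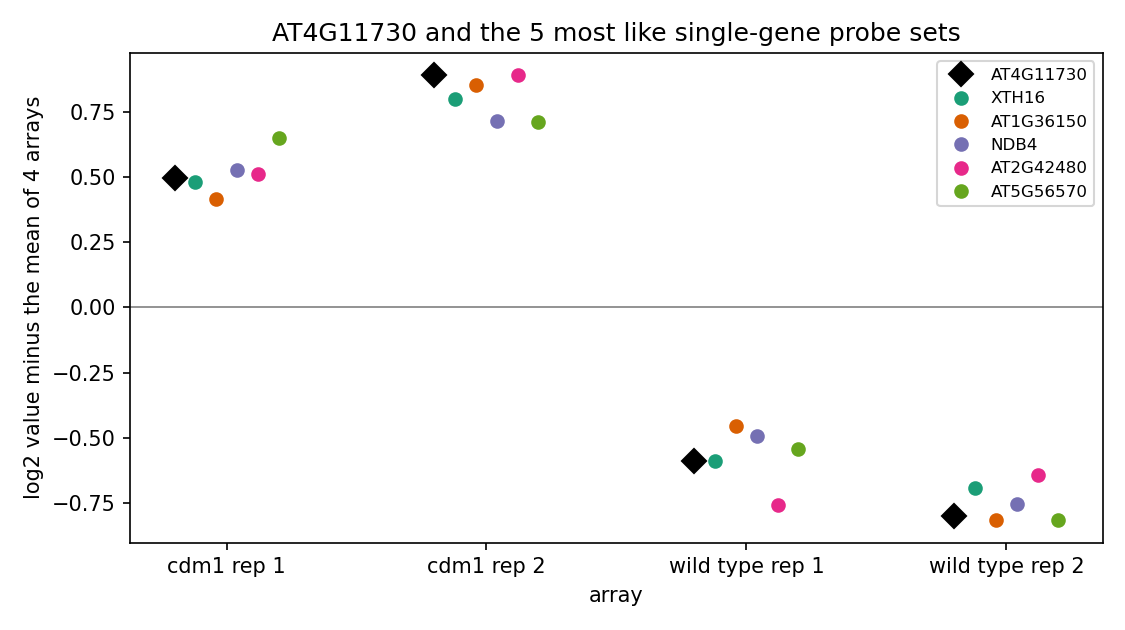
Log2 values minus the gene's mean over 4 arrays (vertical axis) for each array (horizontal axis), with AT4G11730 as black diamonds and the 5 most like single-gene probe sets as coloured points. All 6 genes lie above 0 in both cdm1 arrays and below 0 in both wild type arrays.

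Of the P-type ATPases other than proton pumps, 9 of 35 listed loci had a single-gene probe set, and none was called. All 9 belong to the flippase list (13 loci), whose enzymes move phospholipids between the leaflets of membranes. None of the 14 listed calcium pumps or of the 8 heavy metal pumps had a single-gene probe set. The same holds for the remaining proton pump genes AHA10 and AHA11. For 8 of the 9, the annotation gives the locus tag alone, and their ALA names come from general knowledge. It gives AT1G13210 the symbol ACA.l. Their median difference was -0.047, against 0.0036 over all probe sets, with 4 differences above 0 and 5 below, from -0.79 to 0.21. Over all probe sets, 0.602% were called higher in cdm1 and 0.73% lower, so that 0 calls among 9 loci is near that background. At an unadjusted p of 0.05, limma gave 2 of the 9, both lower, where 15.3% of all probe sets passed. AT1G54280 (ALA6) and AT3G25610 (ALA10) lay under 5.32, the mean value below which 33.3% of probe sets fell. Whether their signals exceeded background was not tested.

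The flippase locus AT3G13900 (ALA7) had the smallest p among the measured proton transport and P-type ATPase loci. It read 5.64 and 5.996 in cdm1 and 6.66 and 6.55 in wild type, in replicate order. The groups did not overlap, and cdm1 was the lower one, opposite to AT4G11730. The difference was -0.79 (SE 0.14, limma adjusted p = 0.0717). The ALA7 difference was -0.97 without cdm1 replicate 2 and -0.61 without cdm1 replicate 1, where the lone cdm1 array has no spread of its own. AT1G13210 (ALA11) had the other small unadjusted p, with a difference of -0.26 (SE 0.089, limma adjusted p = 0.262).

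The endomembrane proton pumps acidify the vacuole and the secretory compartments, and 9 of 31 listed loci were measured, all subunits of vacuolar-type ATPases. Limma called 0 of the 9 at an adjusted p of 0.05 and 0 at an unadjusted p of 0.05. Of all probe sets, 1.33% and 15.3% passed, so 0 calls among so few loci is near that background. Differences were above 0 in 8 of 9, against 51.0% of all probe sets, with a median of 0.061 and a range from -0.047 to 0.25. The mean log2 value of the 9 loci was 10.08 in cdm1 replicate 1 and 9.95 in cdm1 replicate 2. It was 9.92 and 9.93 in wild type, so the shift lay mostly in cdm1 replicate 1. The locus with the smallest p was AT4G02620 (VHA-F), a subunit of the ATP-hydrolysing sector. It read 10.6 and 10.4 in cdm1 and 10.3 and 10.2 in wild type, a difference of 0.25 (SE 0.12, limma adjusted p = 0.378). All of these log2 differences were below the 1.38 of AT4G11730, but that gene was chosen for its difference, so the contrast is a description.

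Regulators of the plasma membrane pump were represented by 4 of 26 listed loci, and limma called 0 of them (0 at an unadjusted p of 0.05). The shares of all probe sets were 1.33% and 15.3%, so 0 calls among 4 loci is near that background. PSY1R, a receptor kinase of the peptide PSY1 that acts on the pump, had the smallest p. It read 5.19 and 5.41 in cdm1 and 5.57 and 5.49 in wild type, a difference of -0.23 (SE 0.11, limma adjusted p = 0.396). FER, the receptor kinase FERONIA, which signals to the pump in roots, differed by -0.082 (SE 0.098). The 4 differences had a median of -0.11. No 14-3-3 gene, whose proteins bind and activate the pump, was among the measured loci.

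Carriers that use the proton gradient were represented by 3 of 20 listed sugar transporter loci. Limma called 0 of them (0 at an unadjusted p of 0.05), where 1.33% and 15.3% of all probe sets passed. AT3G19940 (STP10), a monosaccharide carrier, had the smallest p, with 4.46 and 4.15 in cdm1 and 4.03 and 4.16 in wild type. The groups overlapped, and the difference was 0.21 (SE 0.13, limma adjusted p = 0.497). STP10 and AT5G26250 (STP8) lay under 5.32, the mean value below which 33.3% of probe sets fell. Whether their signals exceeded background was not tested, so their small differences may be those of undetected transcripts. Over all lists of P-type ATPases, proton pumps, regulators and carriers outside the members, 25 of 114 loci were measured, with a median difference of 0.046. Limma called 0 of the 25 at an adjusted p of 0.05, and 2 passed at an unadjusted p of 0.05. Those shares were 1.33% and 15.3% of all probe sets, so 0 calls is near that background.

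**Figure D3:**
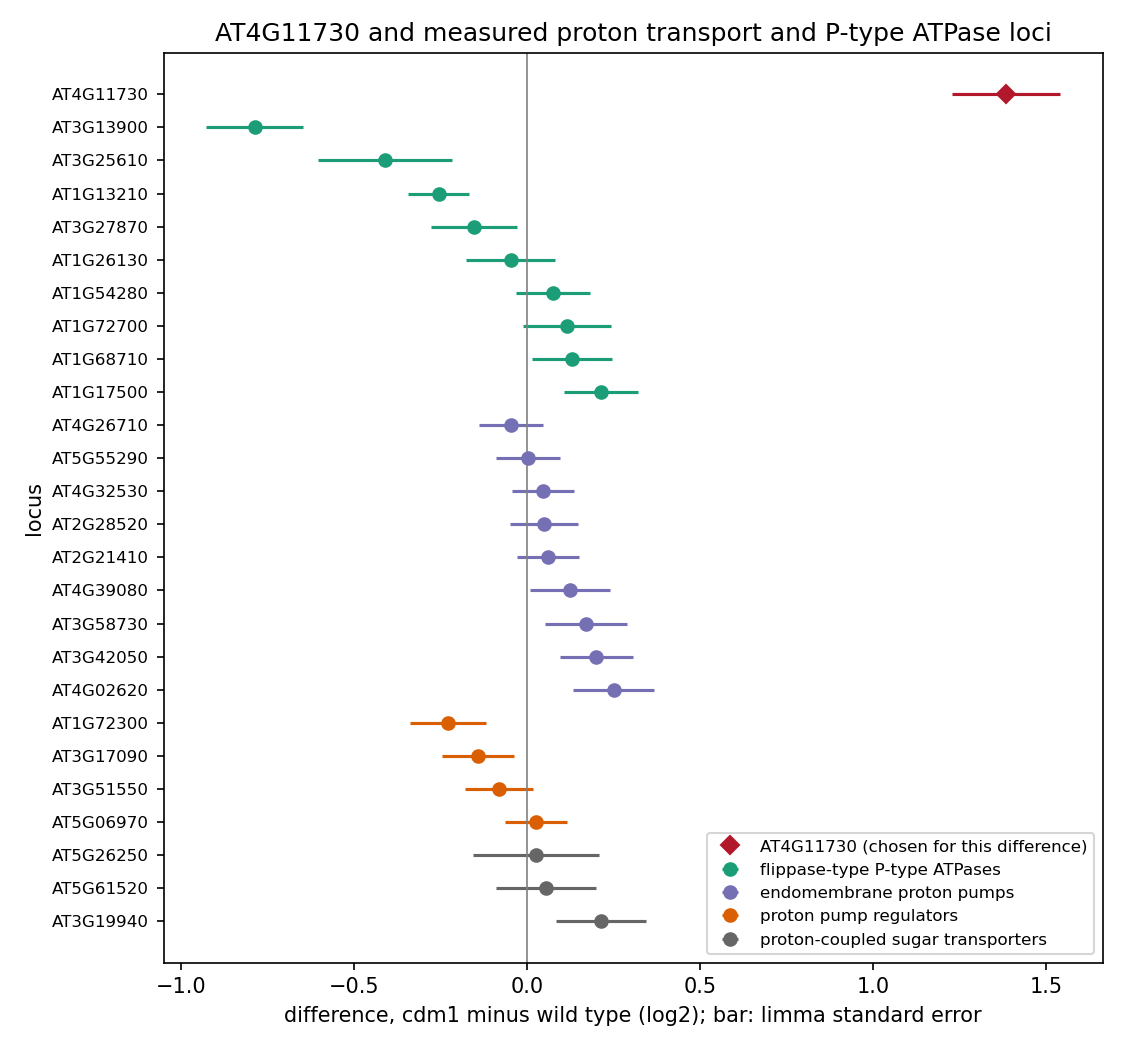
Difference between cdm1 and wild type on the log2 scale (horizontal axis) for AT4G11730 and the 25 measured loci of 4 lists (vertical axis), with bars for limma's standard error. AT4G11730, chosen for its difference, lies at 1.38, and the 25 other loci lie between -0.79 and 0.25.

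Markers of cell types in the bud were read in the same arrays. Late pollen genes had 10 of 21 listed loci measured, and limma called 0 of them, with 3 at an unadjusted p of 0.05, which 15.3% of all probe sets passed. Their differences lay above 0 in 4 and below 0 in 6, from -0.49 for PLIM2A to 0.38 for ACT12. Those 2 and AGL30 were the 3 with a small unadjusted p, so they lay on both sides of 0. The mean log2 value of the 10 loci was 4.66 to 4.77 in the cdm1 arrays and 4.69 to 4.83 in the wild type arrays, so that the groups overlapped. These means, and the values of PLIM2A and ACT12, lay under 5.32, the limit below which 33.3% of probe sets fell. Whether such signals exceeded background was not tested. AGL30, a MADS-box gene of pollen, had the smallest p, at a difference of -0.43 (SE 0.089, limma adjusted p = 0.108). In the tapetum, which feeds the developing pollen, 2 of 8 markers were measured, and both read higher in each cdm1 array than in each wild type array, as did 23.7% of all probe sets. A9, a tapetal lipid transfer protein gene, differed by 0.12 (SE 0.095) and AMS, a tapetal transcription factor gene, by 0.18 (SE 0.089, limma adjusted p = 0.395), so that neither passed. Their part in the AT4G11730 difference was not tested. For green tissue, 2 of 7 markers were measured. LHCB4.2, of the light-harvesting complex, differed by 0.085 (SE 0.097, limma adjusted p = 0.744) and RCA, the Rubisco activase gene, by -0.0029. None of the 8 floral identity markers had a single-gene probe set. The tissue label was therefore checked only through the tapetum genes, A9 at 12.2 to 12.4 and AMS at 11.1 to 11.3. In the same arrays LHCB4.2 read 12.6 to 12.8 and RCA 13.4, though levels of different probe sets are not comparable with each other.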

How the data were processed

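The authors deposited 1 log2 value per probe set and array, made with RMA and the R package affy, per the submitters' processing notes, which name no version. That the scale is log2 follows from the range of the values. RMA normalises the arrays together and compresses differences of dim probe sets. Probe sets were tied to loci through the platform annotation and gene identifiers of the RefSeq table (13436 of 13513 with 1 gene symbol matched). Where a locus had several probe sets, the brightest was used. limma 3.58.1 (R 4.3.3) was fitted to all 4 arrays with genotype as the one term, and p-values were two-sided and Benjamini-Hochberg adjusted over 22746 probe sets (2 residual and 4.00 prior degrees of freedom). The fit was tested on data simulated from its own variance model with independent arrays, so that test cannot show how it behaves where the real arrays depart from the model. The p-values rest only on the spread between these samples, where limma adjusts the variance of each probe set by the variances of all probe sets. Members, gene lists and the naming rule (called loci or the smallest p of each list, 2 measured neighbours a side, 5 most like genes) were chosen with earlier results of these data known. Same-numbered arrays did not deviate together from their group means (r = -0.066), so the replicate number was used only as an alternative.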

Additional observations from a re-analysis of the deposited data

How the results depend on the processing

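The AT4G11730 difference ran from 1.19 to 1.58 on the log2 scale over 10 alternatives. These were median centring of the arrays, another quantile normalisation, a filter on the dimmest 33.3% and a variance trend with and without robust estimation. The others were the replicate block and each array left out. The filter, the variance trends and the block cannot move this difference, which stayed at 1.38. Median centring and the other quantile normalisation both gave 1.40. The range thus came from leaving out arrays, and it is no test of a difference that chose the gene. The difference was lowest without cdm1 replicate 2 and highest without cdm1 replicate 1. The count of called probe sets in the whole series depended on the fit. It was 303 as reported, 465 with robust estimation and 0 with the replicate number as a block (3110 at an unadjusted p of 0.05), which leaves 1 residual degree of freedom. With 1 array left out, limma called 0 (for each wild type array, with 1619 and 2133 at an unadjusted p of 0.05) to 1040 (without cdm1 replicate 2), where the lone array is assumed to vary like the other group. The cause was not tested. Calls among the 25 proton transport and P-type ATPase loci numbered 0 to 1 with 1 array left out and 0 under the other alternatives. As the block gave no call at all, it says nothing about the named genes. Signs turned under some alternatives for AT4G11700, SAY1 and AT4G11745, none of them called. The comparison planned for AHA1 to AHA9 was not run, since none has a single-gene probe set. The number of arrays limits the precision, and signal over background was not analysed here.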
